A study of Prunus avium with 6 samples.

Results

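A group of 282 sweet cherry (Prunus avium) genes was read in each of 3 fruit libraries and in none of 3 leaf libraries. The members were chosen by their unique reads, that is, reads that match a single gene. A gene was taken if it had at least 1 unique read in fruit of ‘Bing’, ‘Lapins’ and ‘Rainier’ and 0 in the leaves of all 3 cultivars. Genes on the scaffolds whose names start with Pav_sc0000877, Pav_sc000088 or Pav_sc000089 were left out. The members are 0.646% of the 43673 predicted genes and 4.17% of the 6763 genes read in every fruit library. The opposite pattern, read in each leaf library and in no fruit library, was found for 644 genes outside the same scaffolds. The contrast between fruit and leaf made the group, so the fruit and leaf levels below describe the members and are not tested.

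The libraries were made from total RNA of leaves and of fruits at commercial maturity from the 2012 season, with 1 library for each cultivar and tissue, and were sequenced by 454 pyrosequencing. ‘Bing’ was grown at Quillota, ‘Lapins’ at Los Andes and ‘Rainier’ at San Francisco de Mostazal, so cultivar and site cannot be told apart. Library sums were between 70058 and 116264 unique reads, with the highest sum in ‘Bing’ fruit. The cultivars stand as the replicates of a tissue, and a comparison of cultivars within fruit has 1 library per arm. The sole leaf marker found on the annotated scaffolds, a chlorophyll a-b binding gene of the light-harvesting antenna (Pav_sc0000877.1_g910.1.mk), had 57, 48 and 55 reads in the leaves and 0, 0 and 1 in the fruits. In bulk tissue, fewer cells of a type and less RNA per cell cannot be told apart.

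The sweet cherry is a fleshy stone fruit. While it ripens it loses chlorophyll, softens as wall polysaccharides are remodelled, and accumulates sugars and, in dark cultivars, anthocyanins. The leaf is a photosynthetic organ whose RNA is rich in transcripts for light capture and carbon fixation. Genes read in one organ and not in the other can mark such functions, but they can also be genes of low level that one library happened to sample.

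None of the 282 members is among the 581 annotated rows used here, and so the members are given by identifier, without a function. Genes with the same read pattern on the left-out scaffolds do have descriptions. There were 6 of them, 1 without a description. Purple acid phosphatase 3 (Pav_sc0000893.1_g840.1.mk), of a family of metal-containing enzymes that release phosphate, had 25, 5 and 12 reads in fruits of ‘Bing’, ‘Lapins’ and ‘Rainier’. A cytoplasmic dynein light chain, a small protein of a complex named for its role in motor transport in animals, had 2, 8 and 5 reads. The probable calcium-binding protein CML25, of the calmodulin-like family, had 3, 7 and 5 reads. A kinase-like protein described as inactive had 6, 3 and 1 reads, and cytochrome c oxidase assembly factor 5, which serves the building of a mitochondrial respiratory complex, had 1, 2 and 1. These genes are not members and enter no count below.

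Most members were read rarely. Their reads summed over the 3 fruit libraries ranged from 3 to 604, with a median of 9 and quartiles of 5 and 18. In all, 148 members had fewer than 10 fruit reads, 40 had at least 30 and 6 had at least 100. The members together held 2.26% of the unique reads of ‘Bing’ fruit (exact Clopper-Pearson 95% interval 2.17 to 2.34), 2.14% in ‘Lapins’ (2.04 to 2.25) and 1.95% in ‘Rainier’ (1.86 to 2.05). The mean was 2.12% ± 0.153 (SD, n = 3 cultivars). The intervals cover counting error only. These reads were concentrated, since the 5 members with most reads held 30.5% of them.

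**Figure D1:**
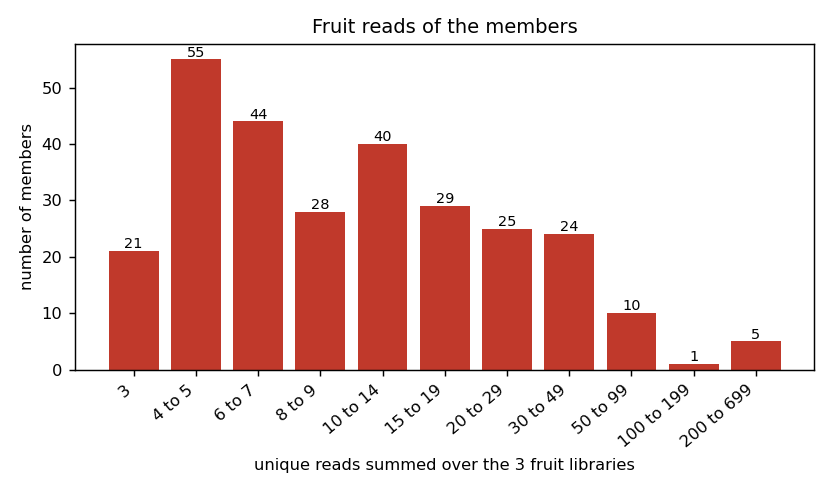
Bars give the number of members (vertical axis) by unique reads summed over the 3 fruit libraries (horizontal axis, classes of unequal width). The 21 members at the left edge have 3 reads, 1 in each library, and 6 members have 100 or more.

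The depth sets how far a member's absence from leaf can be read. The leaf libraries hold 229263 unique reads in sum, and a floor of 3 reads, set for a count of 0 over this group, corresponds to 0.131 reads per 10000. The fruit share of 30 members was at least 10-fold over this floor, and that of 162 members at least 2-fold. Because the members were chosen for their leaf count of 0, these folds are descriptions and not bounds with a confidence level. For 21 members, those with 1 read in each fruit, the fruit share did not exceed the floor, and for these no difference between the tissues was detectable at this depth. The median member was 2.50-fold over the floor.

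The values just inside and outside the rule were close. Among members, 161 had a single read in at least 1 fruit library, and 121 had at least 2 reads in each. A further 316 genes were read in every fruit and had 1 leaf read in all, with a median of 7 fruit reads in sum. The gene of this kind with most reads, Pav_sc0005810.1_g020.1.mk, had 305, 340 and 1331 reads in fruits of ‘Bing’, ‘Lapins’ and ‘Rainier’ and 1 read in ‘Rainier’ leaf, which is more fruit reads than any member had. Another 495 genes had no leaf read and were read in exactly 2 of the 3 fruits, with a median of 3 reads.

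The 10 members given next lead by their mean share of fruit reads. The most read was Pav_sc0000058.1_g370.1.br, with a coding length of 501 bases. It had 79, 228 and 297 reads in fruits of ‘Bing’, ‘Lapins’ and ‘Rainier’ and 0 in each leaf library. Its level was 24.3 ± 15.3 reads per 10000 (SD, n = 3 cultivars), and its share over the summed fruit libraries was 168-fold over the leaf floor. It ranked 17 among all genes by its mean share of fruit reads. The member was lowest in ‘Bing’ fruit. Pav_sc0000168.1_g030.1.mk had 50, 156 and 136 reads, at 13.8 ± 8.59 per 10000, and was also lowest in ‘Bing’. Its share was 95.2-fold over the leaf floor.

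A pair of members had the reverse order. Pav_sc0001797.1_g120.1.mk had 260 reads in ‘Bing’ fruit against 42 in ‘Lapins’ and 46 in ‘Rainier’ (11.2 ± 9.70 per 10000). Pav_sc0000065.1_g210.1.mk had 219 reads against 30 and 42 (9.29 ± 8.28 per 10000). The SDs of these 4 members are large because ‘Bing’ stands apart from the other fruits, in either direction. The fifth, Pav_sc0000029.1_g090.1.mk, was more even, with 101, 53 and 47 reads and a level of 7.14 ± 1.54 per 10000. Its share was 55.9-fold over the leaf floor.

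Below them came Pav_sc0000646.1_g030.1.mk, with 103, 12 and 19 reads in ‘Bing’, ‘Lapins’ and ‘Rainier’. Pav_sc0001125.1_g090.1.br had 27, 17 and 46 reads in the same order of cultivars. Pav_sc0000484.1_g440.1.mk had 21, 24 and 23 reads and showed the least spread of the 10 leading members after Pav_sc0000029.1_g090.1.mk by the ratio of its highest to its lowest share, 1.79 against 1.55. Pav_sc0000747.1_g430.1.mk had 37, 23 and 12 reads. Pav_sc0000691.1_g770.1.br was read mostly in ‘Lapins’ fruit, with 47 reads against 6 in ‘Bing’ and 7 in ‘Rainier’. In each of these 10 members every fruit library lay above every leaf library, which the rule fixes.

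**Figure D2:**
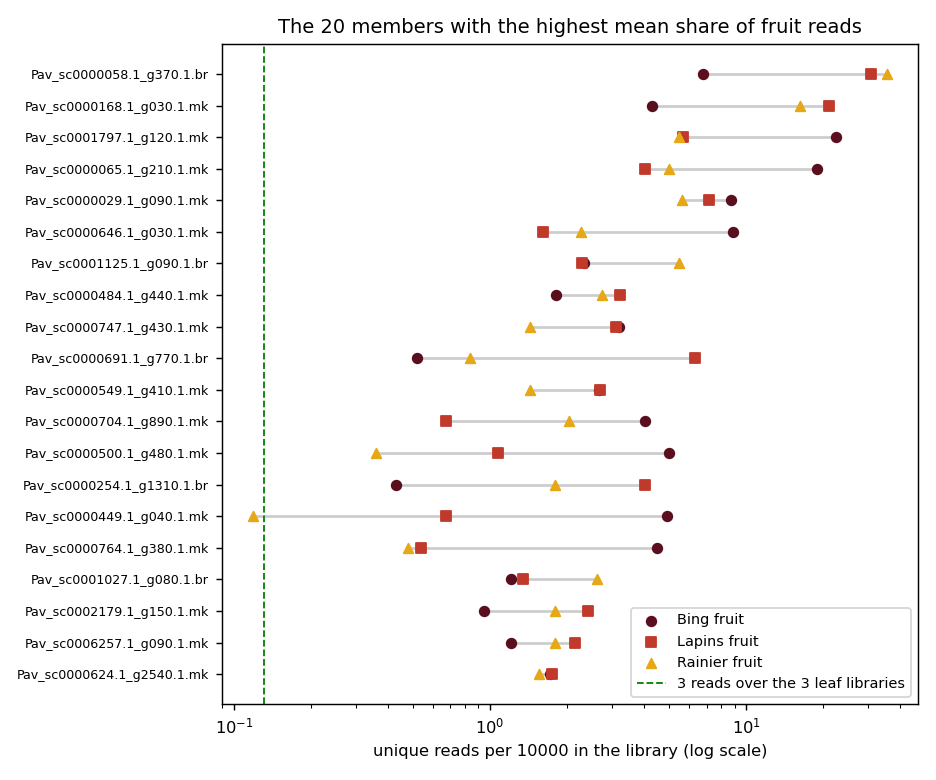
Points give the unique reads per 10000 (log scale) of the 20 members with the highest mean share of fruit reads, in each fruit library, and the dashed line marks 3 reads over the 3 leaf libraries, 0.131 per 10000. The upper 2 members are lowest in ‘Bing’ and the next 2 are highest in ‘Bing’.

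Ranked per length by the deposited RPKM (total reads scaled to coding length and library size), the order changed little at the top. Pav_sc0000058.1_g370.1.br led with a mean of 4757 RPKM in fruit, followed by Pav_sc0001797.1_g120.1.mk with 2532 and Pav_sc0000029.1_g090.1.mk with 1205. Of the 10 members leading by mean share, 8 were among the 10 highest by RPKM. Pav_sc0000168.1_g030.1.mk, with 1635 bases the longest of the 10, was at rank 2 by mean share and at rank 5 by RPKM. No member was among the 10 most read genes of the fruit libraries by mean share, 4 were among the 100 most read and 14 among the 1000 most read.

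To see the pattern in libraries that did not choose the genes, the rule was applied to the 4 libraries of 2 cultivars and the third cultivar was then read. With ‘Rainier’ held out, 654 genes were chosen, and their reads in ‘Rainier’ summed to 3544 in fruit and 299 in leaf. Their share of reads was 9.91 times higher in fruit than in leaf (8.80 to 11.2, exact 95% interval from the read counts). With ‘Bing’ held out, 707 genes had 4305 fruit and 626 leaf reads, a ratio of 5.26 (4.84 to 5.73). With ‘Lapins’ held out, 717 genes had 2404 and 381 reads, a ratio of 5.94 (5.33 to 6.64). The direction was the same in 3 of 3 cultivars. Without the most read gene in the held-out fruit the ratios were 6.21, 4.95 and 5.38 in the same order. All genes read in both fruits used for the choice, whatever their leaf reads, had ratios of 1.17 to 1.25.

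**Figure D3:**
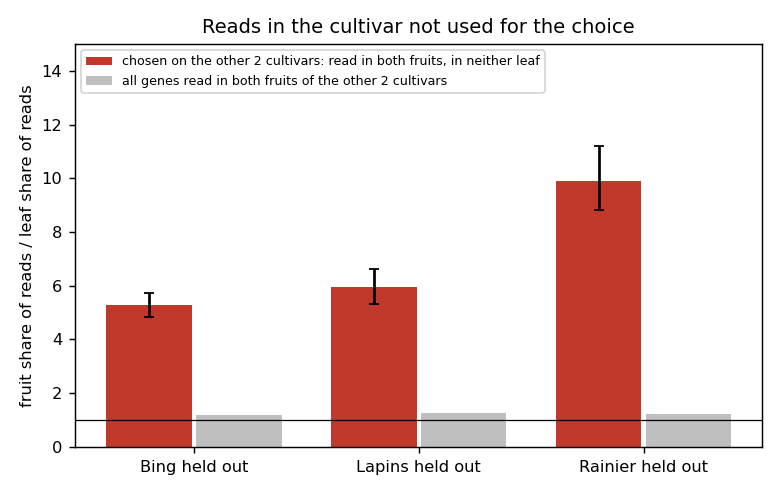
Bars give the share of reads in fruit divided by the share in leaf in the held-out cultivar, for genes chosen on the other 2 cultivars (red, with exact 95% intervals for counting error) and for all genes read in both fruits of those cultivars (grey). The red bars stand between 5.26 and 9.91 and the grey bars between 1.17 and 1.25.

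Gene by gene the pattern was less often kept. The held-out cultivar showed it, with a fruit read and no leaf read, for 43.1% of the genes chosen when ‘Rainier’ was held out, for 39.9% with ‘Bing’ and for 39.3% with ‘Lapins’. The genes that kept it are the same 282 members each time, so these shares differ by the number chosen alone. The same share over all genes read in both fruits used for the choice was 15.6%, 11.4% and 14.1%. Those genes include the chosen ones. In the same order, a fruit read was less frequent among the chosen genes, at 65.1%, 77.7% and 61.5%, against 86.4%, 91.6% and 83.6%. The absence of a leaf read was more frequent, at 68.8%, 57.3% and 67.8%, against 21.5%, 14.8% and 21.3%. The higher share thus came with absent leaf reads, not with more frequent fruit reads. The part of low read numbers in it was not tested. Leaf reads of the held-out cultivar were found on 302 of the chosen genes for ‘Bing’, 231 for ‘Lapins’ and 204 for ‘Rainier’, with at most 9 such reads on any gene. The share was higher in fruit for 65.9%, 50.5% and 55.8% of the chosen genes, with ‘Bing’, ‘Lapins’ and ‘Rainier’ held out, beside 58.8%, 49.5% and 53.0% of all genes read in both fruits used for the choice. It was in leaf for 118, 151 and 121 of the chosen genes, and 123, 204 and 168 had no read in either tissue of the held-out cultivar. The number of members follows the number of libraries in the same way. Leaving out 1 library raised it from 282 to between 405 (without ‘Bing’ fruit) and 549 (without ‘Bing’ leaf), with 486 and 450 without ‘Lapins’ or ‘Rainier’ fruit and 441 and 426 without their leaves.

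The fruit libraries were then compared with each other, which the rule does not use beyond its minimum of 1 read in each. The test of Kal on proportions of reads was used, and a call needed p of 0.05 or lower, a 2-fold or greater ratio of shares, and 10 reads or more in one of the compared libraries. Of 72 members with enough reads, 25 were higher in ‘Bing’ than in ‘Lapins’ fruit, or 34.7%, against 21.4% of all genes with enough reads. For the 14 members higher in ‘Lapins’ the shares were 19.4% and 14.2%. Between ‘Bing’ and ‘Rainier’, 29 of 69 members were higher in ‘Bing’ (42.0%, against 20.6% of all genes) and 14 were higher in ‘Rainier’ (20.3% against 12.4%). Between ‘Lapins’ and ‘Rainier’, 9 of 45 were higher in ‘Lapins’, against 8.77% of all genes, and 6 in ‘Rainier’ (13.3% against 7.09%). The median number of reads in a pair was 21 to 24 for these members and 27 to 28 for all genes with enough reads. These tests compare libraries, not cultivars, and have no replicate check.

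The counts depended on the test. edgeR's quasi-likelihood test had tissue and cultivar in the model. A member has 0 reads in every leaf, so this model leaves it next to no spread of its own. The p of a member therefore rests on spread taken from other genes and is no replicate check. In this test 12 members passed the filter on low counts, and 0 were called in any pair at an adjusted p under 0.05. Over all 1864 genes that passed, it called 0.0536% as higher in ‘Bing’ than in ‘Lapins’, 0.161% as lower, 0.0536% as higher in ‘Bing’ than in ‘Rainier’ and 0 in the other directions. At an unadjusted p under 0.05 it gave 3 of the 12 members higher and 2 lower in ‘Bing’ in each pair with ‘Bing’, where 68 of all 1864 genes were higher (3.65%) and 71 (‘Lapins’) or 79 (‘Rainier’) lower. Between ‘Lapins’ and ‘Rainier’ it gave 0 members, and 16 and 11 of all genes. These 12 members were read more than the genes beside them. Their median number of fruit reads was 87.5 in the pair of ‘Bing’ and ‘Lapins’ and 97.5 in that of ‘Bing’ and ‘Rainier’. For all 1864 genes it was 37 in each of these pairs, and the part of read level was not tested. Fisher's exact test with adjusted p, over every gene with a read in the pair, took all 282 members. It gave 12 members higher in ‘Bing’ than in ‘Lapins’ (4.26%, against 1.95% of all genes) and 10 higher in ‘Lapins’ (3.55% against 2.35%). It gave 11 for ‘Bing’ over ‘Rainier’ (3.90% against 1.67%) and 6 for the reverse (2.13% against 1.85%). For ‘Lapins’ over ‘Rainier’ it gave 2 (0.709% against 0.287%), and for the reverse 0 (against 0.104%).

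The counts also moved with the minimum of reads. When both libraries of a pair needed 10 reads, which 20 members met in each pair, 3 members were higher in ‘Bing’ and 4 in ‘Lapins’ (6.72% and 16.7% of all genes), and 4 were higher in ‘Bing’ and 4 in ‘Rainier’ (8.08% and 12.5%). Between ‘Lapins’ and ‘Rainier’ 3 and 1 were called (4.83% and 2.53%). With no minimum, all 282 members were compared, and the shares of members and of all genes were closer. Here 25 members were higher and 22 lower in ‘Bing’ than in ‘Lapins’ (8.87% and 7.80%, against 6.52% and 6.63% of all genes). Against ‘Rainier’, 31 were higher and 23 lower in ‘Bing’ (11.0% and 8.16%, against 6.91% and 5.77%). In ‘Lapins’, 11 were higher and 6 lower than in ‘Rainier’ (3.90% and 2.13%, against 3.11% and 2.16%). ‘Bing’ is the deepest of the fruit libraries, and the part of depth in these counts was not tested.

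**Figure D4:**
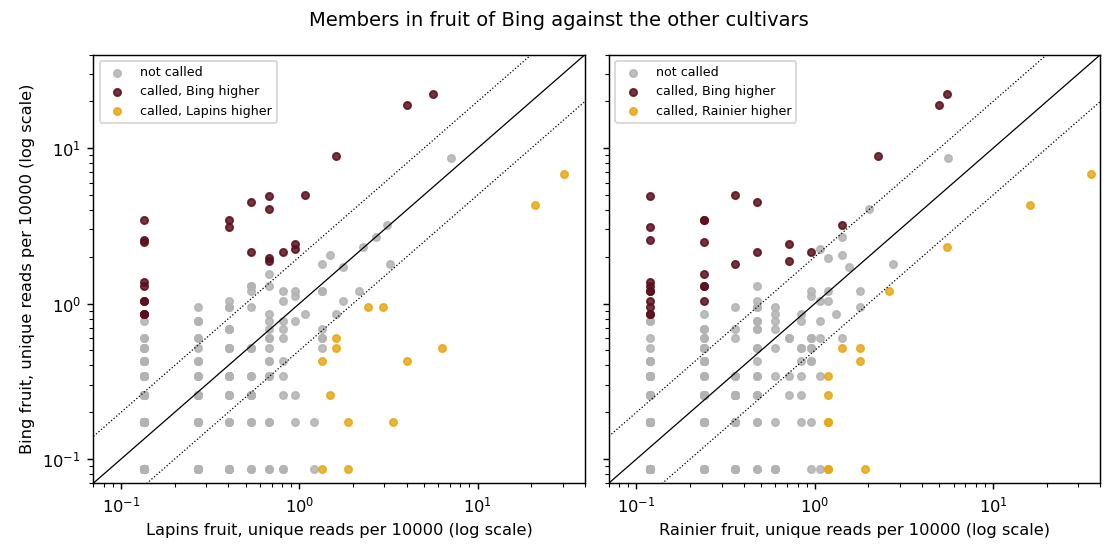
Each point is a member, with its unique reads per 10000 (log scales) in ‘Bing’ fruit on the vertical axis and in ‘Lapins’ (left) or ‘Rainier’ fruit (right) on the horizontal axis. The solid line marks equal shares and the dotted lines a ratio of 2. Called members lie on both sides, 25 and 14 on the left and 29 and 14 on the right.

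The largest set was called higher in ‘Bing’ fruit than in both other fruits. Of the 79 members with at least 10 reads in at least 1 fruit, 20 were called higher in ‘Bing’ than in both other fruits, or 25.3%, against 9.65% of the 3160 other genes with as many reads and a read in every fruit. They had 10 to 260 reads in ‘Bing’ (median 29.5), 1 to 42 in ‘Lapins’ (median 3.5) and 1 to 46 in ‘Rainier’ (median 2). Together they held 93.2 reads per 10000 in ‘Bing’ fruit, 18.4 in ‘Lapins’ and 18.2 in ‘Rainier’. They made up 41.3% of all member reads of ‘Bing’ fruit, against 8.61% and 9.33% in the others. A gene could enter the 79 by its ‘Bing’ reads alone, and most of the 20 did. With 10 reads needed in both libraries of a pair, 3 members were higher in ‘Bing’ than in ‘Lapins’ and 4 than in ‘Rainier’. The reverse was called for 4 members in each pair. The part of the read minimum in the share of 25.3% was not tested.

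The 3 of these 20 members with most reads are given with their ratios. Pav_sc0001797.1_g120.1.mk was 3.96 times higher in ‘Bing’ than in ‘Lapins’ (exact 95% interval 2.85 to 5.63) and 4.08 times higher than in ‘Rainier’ (2.97 to 5.71). Pav_sc0000065.1_g210.1.mk was 4.67 (3.18 to 7.09) and 3.77 times higher (2.70 to 5.37). Pav_sc0000646.1_g030.1.mk was 5.49 (3.01 to 11.0) and 3.91 times higher (2.38 to 6.76). All 6 of these ratios passed Fisher's exact test with p adjusted over all genes with a read in the pair (largest adjusted p = 1.01e-07, Benjamini-Hochberg). In edgeR's test none of these genes was called (adjusted p 0.294 to 0.509 in these 6 comparisons and the 4 of the next set). They were read in no leaf, so that test took their spread from other genes. Others of the set, named after their values were seen, were steeper and rest on few reads in the lower libraries. Pav_sc0000449.1_g040.1.mk had 57, 5 and 1 reads in fruits of ‘Bing’, ‘Lapins’ and ‘Rainier’, and Pav_sc0000843.1_g180.1.mk had 40, 1 and 2.

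The opposite set was smaller in number. It included the 2 members with the highest mean share of fruit reads, which held most of its reads. There were 5 members lower in ‘Bing’ than in both other fruits, 6.33% against 6.93% of those other genes. The most read member, Pav_sc0000058.1_g370.1.br, was 4.51 times higher in ‘Lapins’ (exact 95% interval 3.48 to 5.90) and 5.21 times higher in ‘Rainier’ (4.05 to 6.76) than in ‘Bing’. Pav_sc0000168.1_g030.1.mk was 4.88 (3.53 to 6.85) and 3.77 times higher (2.71 to 5.32). These ratios also passed Fisher's exact test, with a largest adjusted p of 3.63e-15. Neither gene was called in edgeR's test, whose spread for them also came from other genes. The other 3, named after their values were seen except for the first, were Pav_sc0000254.1_g1310.1.br with 5, 30 and 15 reads in ‘Bing’, ‘Lapins’ and ‘Rainier’, Pav_sc0001846.1_g040.1.mk with 2, 25 and 10, and Pav_sc0000029.1_g140.1.mk with 6, 12 and 12. The 5 together held 12.2 reads per 10000 in ‘Bing’ fruit, 60.6 in ‘Lapins’ and 56.0 in ‘Rainier’.

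A few members stood out in 1 of the other fruits. In ‘Lapins’, 6 members were called over both others (7.59% against 2.69% of the other genes), among them 2 of the 5 just given. Pav_sc0000691.1_g770.1.br was 12.2 times higher in ‘Lapins’ than in ‘Bing’ (exact 95% interval 5.23 to 35.1; adjusted p = 2.71e-11 from Fisher's exact test) and 7.58 times higher than in ‘Rainier’ (3.40 to 19.9; adjusted p = 7.53e-07). In ‘Rainier’, 4 members were called over both others (5.06% against 1.33%). Pav_sc0001125.1_g090.1.br was 2.36 times higher than in ‘Bing’ (1.44 to 3.95; adjusted p = 0.0129 from Fisher's exact test) and 2.40 times higher than in ‘Lapins’ (1.35 to 4.46; adjusted p = 0.171). In edgeR, with the spread taken from other genes, the adjusted p of Pav_sc0001125.1_g090.1.br was 0.745 against ‘Bing’ and 0.998 against ‘Lapins’. Pav_sc0000691.1_g770.1.br did not pass edgeR's filter on low counts. The others of the 4 had 1 read each in ‘Bing’ fruit, and 16, 10 and 10 in ‘Rainier’. They were Pav_co4024757.1_g010.1.mk, Pav_sc0001368.1_g030.1.br and Pav_sc0000852.1_g400.1.mk, the last 2 named after their values were seen. All of these entered the 79 members with enough reads by their ‘Rainier’ reads alone, and some of the 6 entered by their ‘Lapins’ reads alone. The part of the read minimum in the shares of 7.59% and 5.06% was not tested.

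‘Lapins’ and ‘Rainier’ fruits differed less firmly. Pav_sc0000254.1_g1310.1.br was 2.26 times higher in ‘Lapins’ (exact 95% interval 1.18 to 4.52) and Pav_sc0000747.1_g430.1.mk 2.16 times (1.03 to 4.77). In the other direction, Pav_sc0000704.1_g890.1.mk, with 47, 5 and 17 reads in ‘Bing’, ‘Lapins’ and ‘Rainier’, was 3.01 times higher in ‘Rainier’ than in ‘Lapins’ (1.07 to 10.4), and Pav_co4024757.1_g010.1.mk 3.54 times (1.14 to 14.6). None of these 4 ratios passed Fisher's exact test after adjustment (adjusted p between 0.542 and 0.856).

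Not all well read members varied. Of the 40 members with at least 30 fruit reads, 9 had all 3 shares within a ratio of 2. Pav_sc0000029.1_g090.1.mk was the most read of them, with ratios of 1.22 for ‘Bing’ over ‘Lapins’ (exact 95% interval 0.866 to 1.73), 1.55 for ‘Bing’ over ‘Rainier’ (1.09 to 2.24) and 1.27 for ‘Lapins’ over ‘Rainier’ (0.843 to 1.93). For Pav_sc0000484.1_g440.1.mk the ratio of ‘Lapins’ over ‘Bing’ was 1.79 (0.953 to 3.37). These intervals leave room for a difference of 1.5-fold or more. In all, 58 members were called in some pair, or 73.4% of the 79 with enough reads, against 46.0% of the 3160 other genes. A gene could enter the 79 or the 3160 through its highest fruit alone. The part of the read minimum in these shares was not tested. The 203 members under 10 reads in every fruit could not be called by this rule.

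Other properties of the members, which the rule did not use, were set beside those of all genes read in every fruit. Members were shorter, with a median coding length of 981 bases (quartiles 603 and 1533) against 1326 (837 and 2016). Genes read in every leaf and no fruit had a median of 1010 bases and all genes with a read 1080. Gene identifiers end in mk or br, and 88.3% of members end in mk. The share was 95.8% of the genes read in every fruit, 84.0% of those read in every leaf and no fruit, 86.5% of all genes with a read and 54.3% of all predicted genes. The 33 members in br included 3 of the 10 that lead by mean share. These values are descriptions, and the part of length in the read numbers was not tested.

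Reads that match several genes were few. Non-specific reads fell on 24 members in fruit, 8.51% of them, with 86 such reads in all, against 5.97% of the genes read in every fruit. In leaf, 3 members had 1 non-specific read each and the others had 0. The 3 were weakly read in fruit, with 9, 5 and 5 unique reads in sum. The most read member had no non-specific read in any library.

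Members were scattered over the genome assembly. They lay on 206 of its 5477 named scaffolds and contigs that carry a predicted gene, with 157 of these holding a single member and 4 holding 5. Gene numbers in the identifiers give the order along a scaffold, and 15 members lay directly next to another member, in 6 pairs and 1 run of 3. Of the 501 other genes next to a member, 223 had no read in any library, or 44.5%, against 62.2% of all predicted genes.

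The run of 3 lay on Pav_sc0000029.1, where 5 of 22 predicted genes were members. In order, Pav_sc0000029.1_g140.1.mk had 6, 12 and 12 reads in fruits of ‘Bing’, ‘Lapins’ and ‘Rainier’, Pav_sc0000029.1_g150.1.mk had 2, 2 and 1, and Pav_sc0000029.1_g160.1.mk had 3, 11 and 6. The fifth member by mean share, Pav_sc0000029.1_g090.1.mk, lies before them on the same scaffold. Between it and the run, the gene Pav_sc0000029.1_g110.1.mk was read mostly in leaf, with 68, 64 and 68 reads there and 8, 8 and 3 in fruit. The other scaffolds with 5 members carry 99 to 126 genes.

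**Figure D5:**
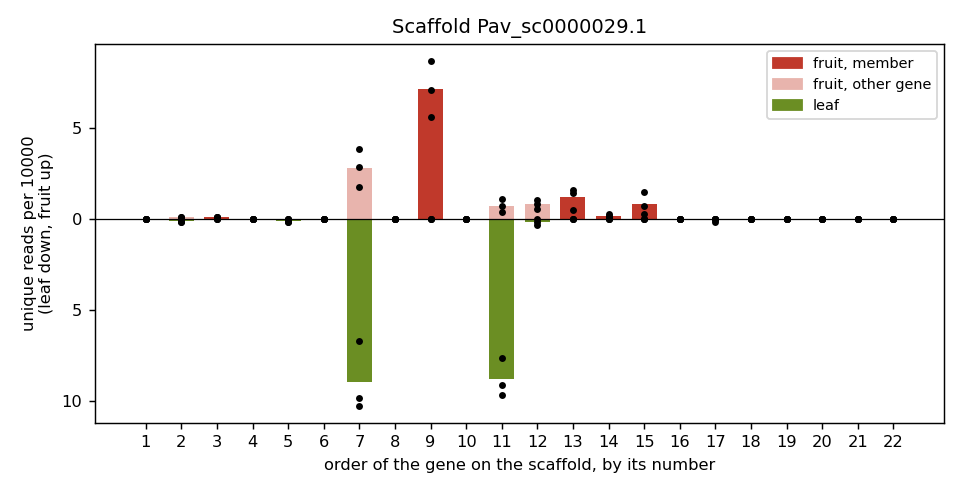
Mean unique reads per 10000 in fruit (up) and leaf (down) for the 22 genes of scaffold Pav_sc0000029.1 in the order of their numbers, with points for the 3 cultivars. The 5 members (dark red) stand at places 3, 9, 13, 14 and 15, and places 7 and 11 have the most leaf reads.

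The most read member also had a neighbour of high level. The gene before it, Pav_sc0000058.1_g360.1.br, had 2448, 2375 and 4027 reads in fruits of ‘Bing’, ‘Lapins’ and ‘Rainier’, the highest mean share of all genes in fruit, and 4, 13 and 7 reads in the leaves, so that it is not a member. The gene after it had no read. Pairs of neighbouring members were mixed, and these are named after their values were seen. Beside Pav_sc0000691.1_g770.1.br, which was highest in ‘Lapins’, Pav_sc0000691.1_g780.1.br had 1, 14 and 5 reads in ‘Bing’, ‘Lapins’ and ‘Rainier’, also with most in ‘Lapins’. On Pav_sc0003562.1, Pav_sc0003562.1_g340.1.mk had 12, 1 and 2 reads, with most in ‘Bing’, and Pav_sc0003562.1_g350.1.mk had 2, 5 and 4, with most in ‘Lapins’. The sequences of neighbouring genes were not compared, since only identifiers were used here.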

How the data were processed

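Reads of the 6 libraries were trimmed and mapped by the authors in CLC Genome Workbench, with the 43673 predicted coding sequences as reference. The deposited counts of unique and of total reads per gene are whole numbers without normalisation. The deposited files also hold RPKM, total reads scaled by the authors to length and library size, which gave coding lengths and the ranking per length. TPM was not used. The members and lists were chosen with earlier results of these data known.

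Fruit libraries were compared in pairs with the Z-test of Kal et al. over all genes on unique reads, as in the study. The 95% intervals of ratios are exact (Clopper-Pearson) and cover counting error only. A fold against leaf used a floor of 3 reads over the 3 leaf libraries. Alternatives used Fisher's exact test, TMM, DESeq2 1.42.0 size factors, edgeR 4.0.16 in R 4.3.3 (quasi-likelihood, filterByExpr by tissue, Benjamini-Hochberg), other read minimums, total reads, equal depth and left-out libraries. The tests were tried on simulated data. Named were the 10 members with the highest mean share of fruit reads, up to 3 called members per pair and direction with most reads, the longest run of neighbours, and described genes of the same pattern on left-out scaffolds. The labels do not say whether trees were pooled. edgeR was fitted to leaf and fruit libraries together, with 1 library for each cultivar and tissue. Its p-values rest on what remains after tissue and cultivar are fitted, and not on replicate libraries or trees. For a member, read in no leaf, next to nothing remains, and its p rests on spread taken from other genes. The reference gene table shares no identifier with the files, and no sequences were used here.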

Additional observations from a re-analysis of the deposited data

How the results depend on the processing

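The number of genes read in every fruit and in no leaf depended on the rule. It was 286 with total reads, and 252 were expected with all libraries brought to 70058 reads. With at least 2 reads in each fruit it was 121, and with 1 leaf read allowed 598. Leaving out 1 library gave 405 to 549. The mean percentage of fruit reads on the members was 2.12% with total reads. With the 282 members kept as chosen and 1 fruit library left out of the mean, it was 2.05% to 2.20%. In the held-out test with at least 2 reads in each fruit used for the choice, the pattern was kept by 43.5% of the genes with ‘Bing’ held out, by 51.6% with ‘Lapins’ and by 57.7% with ‘Rainier’.

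The counts of members called between fruits depended on the test. Fisher's exact test with adjusted p gave 12 for ‘Bing’ over ‘Lapins’ (10 the other way), 11 for ‘Bing’ over ‘Rainier’ (6 the other way), 2 for ‘Lapins’ over ‘Rainier’ and 0 the other way. With 10 reads needed in both libraries these were 3 (4), 4 (4) and 3 (1). With no minimum they were 25 (22), 31 (23) and 11 (6). edgeR, which took the spread of members from other genes, called 0 in each. With TMM or DESeq2 sizes or total reads each count stayed within 1.5 times that reported. The 18 named ratios kept their call with total reads and with TMM sizes. No paired analysis was possible because the pairing by cultivar joins fruit and leaf, the contrast that chose the members and was not tested, and a pair of fruits has 1 library per arm. The edgeR model keeps cultivar as a term shared by leaf and fruit.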

Other observations

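Across the 282 members, levels in fruit of ‘Lapins’ and ‘Rainier’ were more alike than those of either with ‘Bing’. Pearson's r of log10 reads per 10000 was 0.73 for ‘Lapins’ and ‘Rainier’, 0.52 for ‘Bing’ and ‘Lapins’ and 0.50 for ‘Bing’ and ‘Rainier’. Over the 6763 genes read in every fruit the same values were 0.79, 0.66 and 0.69. These correlations are across genes of the same libraries, which are not independent replicates, and many members have 1 to 3 reads in a library.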
